A study of Homo sapiens with 6 samples.

Results

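The collagen gene family was followed in RNA-seq of H9 cells, an established human embryonic stem cell line, after transfection with a LINE-1 antisense oligonucleotide. Members were the genes of the deposited count table whose symbol is COL, a number, A and a number, which gave 44 of 53712 rows, with 11 fibrillar collagens, 6 basement membrane collagens (type IV) and 27 others. The cells were kept in PXGL medium, a medium for the naive state, which the series' design text gives them, and were transfected with 25 nM of the antisense oligonucleotide (ASO-L1) or of a sense oligonucleotide (SO-L1), with 3 libraries in each group. In both groups Lipofectamine Stem was the carrier and trans-ISRIB, emricasan and the ROCK inhibitor Y-27632 were present and taken away after the first day. Unsorted cells were collected 48 hours after transfection, so any cells that took up no oligonucleotide are part of the libraries, and all libraries come from a single cell line. The labels do not say that replicates were separate cultures, so p-values measure the spread between these libraries, which may be technical.

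Collagens are secreted or membrane proteins whose chains wind into a triple helix through a repeating glycine-containing motif. Fibrillar collagens form the fibrils of bone, skin and cartilage, type IV collagen forms the sheet of basement membranes, and the others decorate fibrils, anchor basement membranes, form networks or sit in the cell membrane. A helix is built from chains of fixed partners, so the relative amounts of partner transcripts are of interest as well as each gene alone. In the early embryo the first matrix is a basement membrane rich in type IV collagen and laminins.

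The level of LINE-1 RNA itself was not analysed here. Library totals ran from 23330875 to 31164287 counts, and collagen genes took 0.159% to 0.172% of them. The first principal component of all tested genes separated the groups, and replicate 2 of each group stood apart from its other replicates. Core pluripotency genes were high, with POU5F1 at 1135 ± 79.3 CPM in ASO-L1 and 1264 ± 67.7 CPM in SO-L1 (SD, n = 3 each; CPM are counts scaled to each library's total, with TMM factors). Of the naive markers, DNMT3L averaged 57.4 ± 7.24 CPM in ASO-L1 and 79.8 ± 2.90 CPM in SO-L1, whereas KLF17 averaged 0.395 ± 0.146 CPM in ASO-L1 and 0.743 ± 0.196 CPM in SO-L1 (SD, n = 3 each) and ARGFX had too few reads to be tested.

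Few collagen genes passed the test, and those that did went in both directions. COL2A1, COL11A2, COL12A1 and COL1A1 rose after ASO-L1, and COL4A5 and COL14A1 fell. Of 44 members 39 had enough reads to be tested, and 4 of these were called higher (10.3%) and 2 lower (5.13%) at an adjusted p under 0.05, by the quasi-likelihood test of edgeR, adjusted after Benjamini and Hochberg over 16873 genes. Of all tested genes 18.0% were called higher and 15.7% lower, 33.7% in all. A change of at least 2-fold was called for COL2A1, COL11A2 and COL12A1, 3 of 39 members, and for 3.91% of all tested genes in that direction, and no member fell that far (1.08% of all genes). The groups did not overlap for some members, with ASO-L1 wholly higher in 5 and wholly lower in 7, against 25.8% and 25.1% of all tested genes. The median log2 fold change was -0.03 over the tested members and -0.01 over all tested genes.

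With the replicate number as a block in the model, 8 members were higher and 7 lower, against 23.3% and 22.5% of all genes. By DESeq2 4 members were higher and 3 lower, against 16.1% and 13.8%. Without replicate 2 of both groups 6 members were called higher and 6 lower, without replicate 1 of both 1 and 0, and without replicate 3 of both 3 and 1. Over all genes those fits called 3726 higher and 3471 lower, 757 and 426, and 1611 and 1209. The main fit called 3031 and 2653. In the authors' deposited table all 6 members called here had the same direction and an adjusted p under 0.05, and no other collagen passed. The 5 members with too few reads were COL10A1 with 48 reads over all libraries, COL15A1 with 23, COL8A1 with 12, COL6A5 with 5 and COL19A1 with 4.

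**Figure D1:**
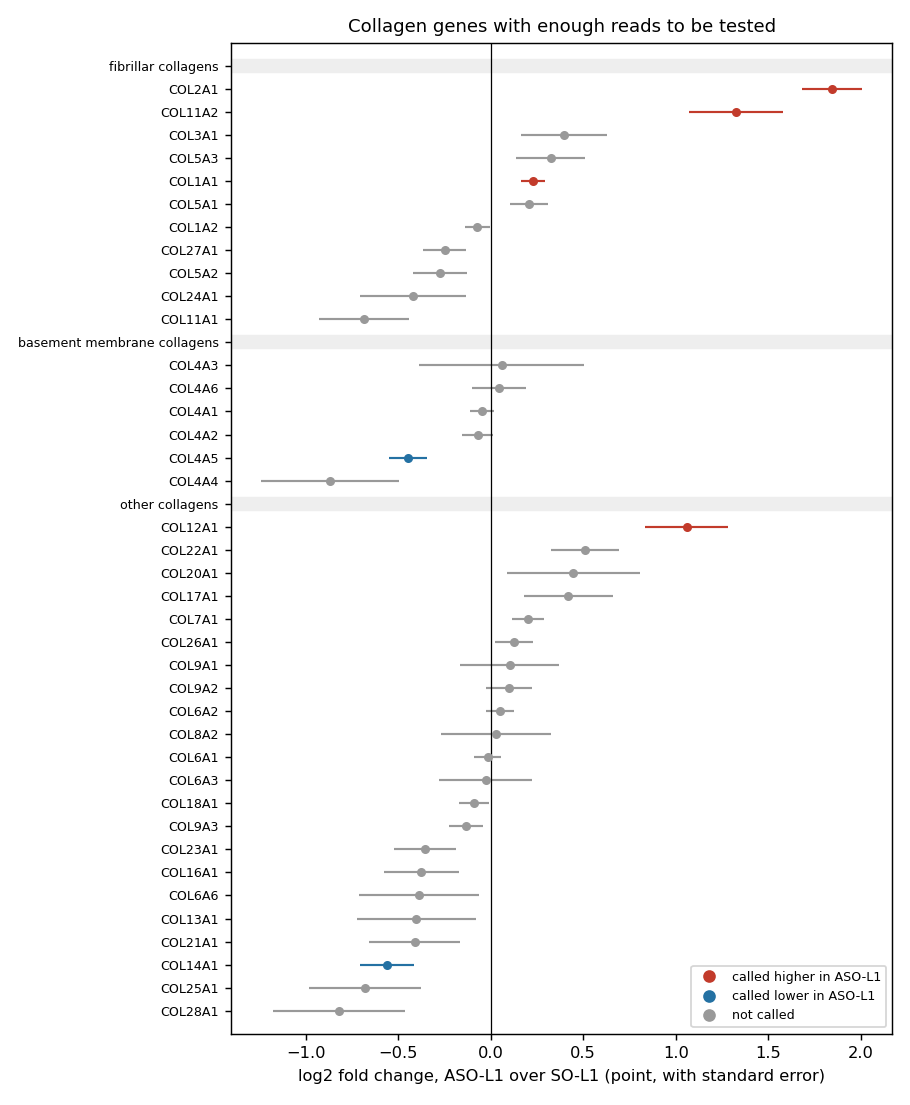
Log2 fold change of ASO-L1 over SO-L1 (x axis, point with standard error) for the 39 tested collagen genes, grouped by type and sorted within each group. The points of COL2A1 (1.84), COL11A2 (1.32) and COL12A1 (1.06) lie farthest to the right, and most other members lie within 1 log2 unit of 0 without a call.

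The cells held a small number of collagen transcripts at high levels. Divided by exon length, COL18A1, whose protein carries endostatin at its end and belongs to the basement membrane zone, led with 43.6 ± 3.97 CPM per kilobase in ASO-L1 and 46.4 ± 3.07 in SO-L1 (SD, n = 3 each). COL1A1 followed with 33.5 ± 1.67 CPM per kilobase in ASO-L1 and 28.6 ± 1.41 in SO-L1. COL6A1, COL9A3, COL1A2 and COL6A2 were the other members above 10 CPM per kilobase in both groups, while 18 members in ASO-L1 and 17 in SO-L1 exceeded 1. The length was that of all annotated exons of a gene joined, which can exceed that of any single transcript. The ranks and the members above a level therefore depend on the annotation. COL4A1, for example, was divided by 14738 bases and stood at 6.91 CPM per kilobase in ASO-L1 and 7.14 in SO-L1. The 7 most abundant members by CPM held 80.9% of all collagen counts in ASO-L1 and 81.3% in SO-L1. Partner chains differed widely in level per length. COL6A3, the largest chain of classical type VI microfibrils, stood at 0.0846 ± 0.0275 CPM per kilobase in ASO-L1 and 0.0852 ± 0.0154 in SO-L1, beside 23.2 in ASO-L1 and 23.5 in SO-L1 for COL6A1. COL9A1, a chain of the fibril-associated type IX collagen, had 0.199 ± 0.0493 CPM per kilobase in ASO-L1 and 0.182 ± 0.0402 in SO-L1, beside 23.1 ± 2.08 in ASO-L1 and 25.4 ± 2.57 in SO-L1 for its partner COL9A3.

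Of the 8 most abundant tested members, COL1A1 was the one called. COL18A1 had 390, 332 and 392 CPM in ASO-L1 and 384, 377 and 425 CPM in SO-L1, with groups that overlapped and a log2 fold change of -0.09 ± 0.08 (SE, adjusted p = 0.40 by edgeR). COL6A1 had 124, 119 and 130 CPM in ASO-L1 and 126, 115 and 135 CPM in SO-L1 (-0.02 ± 0.07, adjusted p = 0.889). COL6A2 had 85.0, 91.8 and 93.6 CPM in ASO-L1 and 89.1, 79.9 and 91.8 CPM in SO-L1 (0.05 ± 0.07, adjusted p = 0.619). The groups overlapped for both chains of type VI collagen, which forms beaded filaments near the cell surface. COL9A3 had 113, 102 and 122 CPM in ASO-L1 and 132, 109 and 128 CPM in SO-L1 (-0.13 ± 0.09, adjusted p = 0.279), again with overlap. It was called lower without replicate 2 of both groups (-0.15, adjusted p = 0.0209). COL7A1, which builds the anchoring fibrils of skin, had 61.5, 69.7 and 61.0 CPM in ASO-L1 and 51.6, 61.4 and 54.0 CPM in SO-L1 (0.20 ± 0.09, adjusted p = 0.0967). Its ASO-L1 library 3 lay just below SO-L1 library 2. COL7A1 was called higher with the replicate block (adjusted p = 0.0177), and when replicate 2 was left out in SO-L1 (0.0435) or in both groups (0.00431). Summed over members, the basement membrane collagens averaged 176 ± 6.57 CPM in ASO-L1 and 187 ± 11.2 CPM in SO-L1, the other collagens 857 ± 45.1 and 880 ± 51.6 CPM, and the fibrillar collagens 614 ± 29.3 and 569 ± 32.6 CPM, in ASO-L1 and SO-L1 (SD, n = 3 each). The groups overlapped in each of the 3 sums, for the fibrillar collagens by little, with ASO-L1 library 1 at 590 CPM and SO-L1 library 2 at 591 CPM. Within each replicate number the fibrillar sum was higher in ASO-L1 (590, 647 and 606 CPM in ASO-L1 and 531, 591 and 584 CPM in SO-L1), and the other 2 sums were lower. Whether same-numbered libraries 1 and 3 form pairs is unsettled. Single genes weighed heavily in these sums. COL1A1 averaged 329 CPM in ASO-L1 and 281 CPM in SO-L1 within the fibrillar sum, and COL18A1 371 and 395 CPM within the sum of the others. The difference of the means for the other collagens was -23.2 CPM, and turned to 1.54 CPM without ASO-L1 replicate 2 and 1.96 CPM without SO-L1 replicate 3. The fibrillar difference of 45.5 CPM was 29.4 without ASO-L1 replicate 2 and 25.9 without SO-L1 replicate 1, and the basement membrane difference of -11.3 CPM was -5.27 without SO-L1 replicate 3.

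Among the 11 fibrillar collagens, all of which were tested, 3 rose and none was called lower by edgeR. That is 27.3% higher, against 18.0% higher and 15.7% lower of all tested genes. The log2 fold change was above 0 for 6 fibrillar members and below 0 for 5. COL2A1, the main collagen of cartilage, had 7.01, 8.54 and 6.65 CPM in ASO-L1 and 2.05, 2.28 and 1.86 CPM in SO-L1. Every ASO-L1 library held more than 2 times the COL2A1 level of any SO-L1 library. The log2 fold change was 1.84 ± 0.16 (SE), a 3.59-fold increase with an adjusted p of 8.0e-04 by edgeR, and COL2A1 was called under all 15 alternatives. COL11A2, a chain of the type XI collagen that forms the core of cartilage fibrils with type II, had 2.27, 2.41 and 1.75 CPM in ASO-L1 and 0.991, 0.610 and 0.913 CPM in SO-L1. The groups did not overlap, and the log2 fold change was 1.32 ± 0.25 (2.50-fold, adjusted p = 0.00446). The reads behind COL11A2 were few, 54 to 55 per library in ASO-L1 and 15 to 31 in SO-L1, and without replicate 1 of both groups its adjusted p was 0.0551.

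COL1A1, the major chain of type I collagen in bone, skin and tendon, rose by a small amount. It had 317, 348 and 323 CPM in ASO-L1 and 265, 291 and 287 CPM in SO-L1, and every ASO-L1 library exceeded the highest SO-L1 library. The log2 fold change was 0.23 ± 0.06 (1.17-fold, adjusted p = 0.0212 by edgeR). The call was lost when SO-L1 replicate 1 (adjusted p = 0.0821) or 3 (0.0649) was left out, or replicate 1 (0.126) or 3 (0.114) in both groups. COL1A2, its partner, had 196, 210 and 203 CPM in ASO-L1 and 197, 225 and 218 CPM in SO-L1, which overlapped (-0.07 ± 0.07, adjusted p = 0.430).

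With all 6 libraries, the filter on low counts and no block, edgeR called no other fibrillar member. With no filter it called 4 higher and 1 lower, without SO-L1 replicate 2 also 4 and 1, and without replicate 2 of both groups 3 and 2. Over all genes those fits called 3123 higher and 2987 lower, 2903 and 2419, and 3726 and 3471. COL3A1, a collagen of vessels and skin, had 10.2, 15.2 and 14.2 CPM in ASO-L1 and 6.91, 13.2 and 10.1 CPM in SO-L1. The groups overlapped, although each ASO-L1 library exceeded the SO-L1 library of its number. Whether libraries numbered 1 and 3 form pairs is unsettled. The log2 fold change of COL3A1 was 0.40 ± 0.23 (adjusted p = 0.221 by edgeR), and 0.41 ± 0.10 with the block (adjusted p = 0.00425). COL11A1, the partner of COL11A2, had 3.09, 3.64 and 3.05 CPM in ASO-L1 and 6.17, 3.13 and 6.22 CPM in SO-L1. SO-L1 library 2 lay among the ASO-L1 libraries, and the log2 fold change was -0.68 ± 0.24 with an adjusted p of 0.0545 by edgeR, 0.0436 by DESeq2 and 0.0113 with the block. COL27A1, a fibrillar collagen of cartilage, had a log2 fold change of -0.25 ± 0.11 (adjusted p = 0.117, and 0.0254 with the block), with 17.4 to 22.0 CPM in ASO-L1 and 22.8 to 27.0 CPM in SO-L1. COL5A1, COL5A2 and COL5A3, chains of the type V collagen that starts fibrils, and COL24A1 ranged from -0.42 to 0.32 on the log2 scale with adjusted p-values of 0.138 to 0.275.

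**Figure D2:**
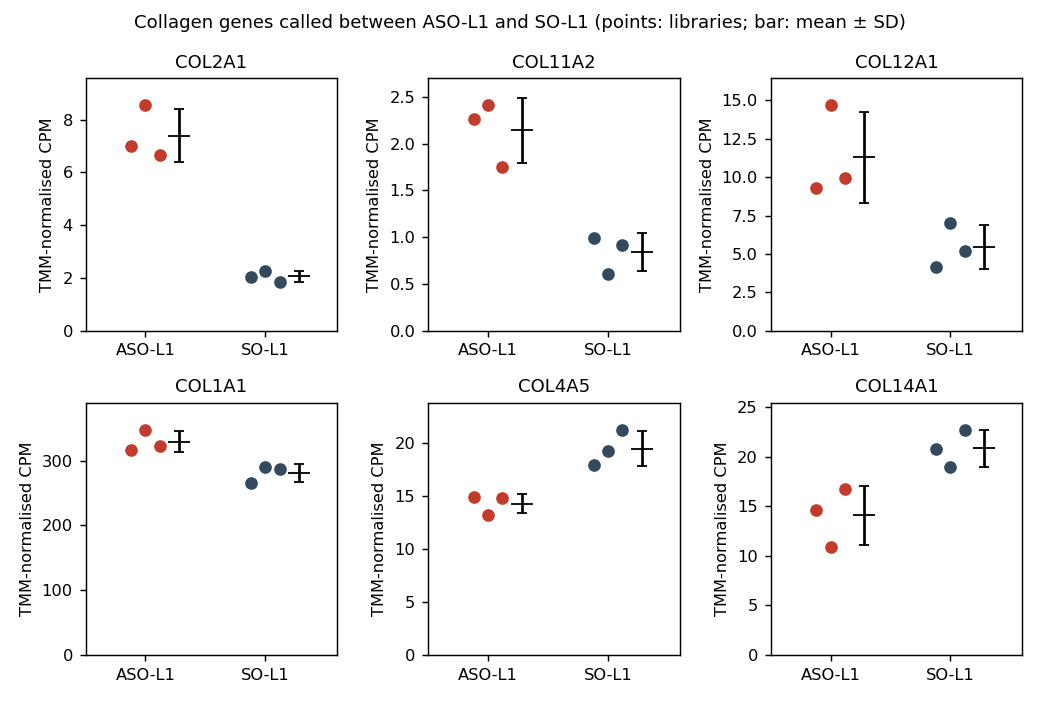
TMM-normalised CPM (y axis from 0) of the 6 called collagen genes in each library of ASO-L1 and SO-L1, with the mean and SD beside the points. The groups do not overlap in any panel, with COL2A1 at 6.65 to 8.54 CPM in ASO-L1 and 1.86 to 2.28 CPM in SO-L1.

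Of the 6 type IV collagen genes, COL4A5 fell (16.7%, near the 15.7% of all tested genes called lower) and the other 5 were not called. COL4A5, a chain of the basement membranes of the kidney and of smooth muscle, had 14.8, 13.2 and 14.8 CPM in ASO-L1 and 17.9, 19.2 and 21.2 CPM in SO-L1, without overlap. The log2 fold change was -0.45 ± 0.10 (0.734-fold, adjusted p = 0.00916 by edgeR). Leaving out SO-L1 replicate 3 gave an adjusted p of 0.0512, and leaving out replicate 1 or 3 in both groups gave 0.0665 or 0.0889. COL4A6, its neighbour, had 4.41, 5.30 and 4.70 CPM in ASO-L1 and 5.21, 4.06 and 4.63 CPM in SO-L1, fully overlapping (0.05 ± 0.15, adjusted p = 0.836). COL4A1, the ubiquitous chain, had 105, 97.6 and 103 CPM in ASO-L1 and 103, 102 and 111 CPM in SO-L1 (-0.05 ± 0.07, adjusted p = 0.609). COL4A2, its partner in the helix, had 52.7, 51.1 and 57.5 CPM in ASO-L1 and 55.4, 52.2 and 61.7 CPM in SO-L1 (-0.07 ± 0.08, adjusted p = 0.551). Both chains overlapped between the groups. COL4A3 and COL4A4, chains of the mature kidney filter, had under 1 CPM in every library, with log2 fold changes of 0.06 ± 0.45 and -0.87 ± 0.37 (adjusted p = 0.930 and 0.0930).

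The type IV genes lie head to head in pairs, and the 126 bases between the RefSeq starts of COL4A1 and COL4A2 are shown because both genes start from them and neither was called. They lie at chr13:110307158-110307283 (GRCh38.p14, plus strand, which is the strand of COL4A2). The starts of COL4A5 and of COL4A6 nearest to it are 379 bases apart, and of this pair COL4A5 fell, so the 250 bases before its start are shown as well (chrX:108439588-108439837, GRCh38.p14, plus strand). Capitals mark matches on either strand to CCAAT (or ATTGG) and GGGCGG (or CCGCCC), motifs known from many promoters, and TATAAA (or TTTATA) was searched too.
COL4A1-COL4A2 interval: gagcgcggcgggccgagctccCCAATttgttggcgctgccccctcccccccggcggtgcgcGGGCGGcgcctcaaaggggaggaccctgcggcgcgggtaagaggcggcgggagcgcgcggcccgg
COL4A5: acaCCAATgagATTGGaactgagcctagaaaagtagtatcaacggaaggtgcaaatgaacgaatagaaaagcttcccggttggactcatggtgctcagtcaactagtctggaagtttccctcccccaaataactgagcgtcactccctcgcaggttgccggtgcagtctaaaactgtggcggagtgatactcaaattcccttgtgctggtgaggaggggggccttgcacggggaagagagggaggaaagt
The COL4A1-COL4A2 interval holds a CCAAT and a GGGCGG, and the COL4A5 window holds CCAAT on both strands near its far end. RefSeq promoter windows were at hand for 32 members, 44 windows in all since some genes have several starts. No window was at hand for COL1A1, COL2A1 and COL14A1, which were called. Windows of the same gene were counted separately, so genes with several starts weigh more. Of the 44 windows 27.3% held CCAAT, 54.5% GGGCGG and 18.2% TATAAA within 250 bases before the start, against 32.0%, 42.6% and 10.7% of all 35116 windows. A match is a description of letters and not a binding site.

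Of the 27 other collagens 22 were tested, and COL12A1 rose and COL14A1 fell (4.55% each, against 18.0% and 15.7% of all tested genes). Both belong to the fibril-associated collagens (FACIT), which bind to the surface of type I fibrils in tendon and other dense tissues. COL12A1 had 9.28, 14.7 and 9.92 CPM in ASO-L1 and 4.12, 6.99 and 5.18 CPM in SO-L1, without overlap and with replicate 2 the highest in each group. Its log2 fold change was 1.06 ± 0.22 (2.09-fold, adjusted p = 0.00765 by edgeR), and without replicate 1 of both groups the adjusted p was 0.0527. COL14A1 had 14.6, 10.9 and 16.7 CPM in ASO-L1 and 20.8, 19.0 and 22.7 CPM in SO-L1, without overlap. Its log2 fold change was -0.56 ± 0.15 (0.678-fold, adjusted p = 0.0153), and the call was lost when SO-L1 replicate 1 (adjusted p = 0.0626) or 3 (0.0685) was left out, or replicate 1 in both groups (0.129). The 250 bases before the RefSeq start of COL12A1, the called member of this class that rose, lie at chr6:75206054-75206303 (GRCh38.p14, minus strand) and hold a single match, to CCGCCC, in capitals.
COL12A1: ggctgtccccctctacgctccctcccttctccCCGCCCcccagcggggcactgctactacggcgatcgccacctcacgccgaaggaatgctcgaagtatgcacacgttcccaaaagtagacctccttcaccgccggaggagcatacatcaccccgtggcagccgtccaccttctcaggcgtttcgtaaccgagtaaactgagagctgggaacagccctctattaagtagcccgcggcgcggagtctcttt

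With all 6 libraries and no block, the remaining tested members of the FACIT class did not pass. COL22A1, found at tissue junctions of muscle, had 6.72, 7.53 and 5.35 CPM in ASO-L1 and 4.70, 5.45 and 3.62 CPM in SO-L1 (0.51 ± 0.18, adjusted p = 0.0552). SO-L1 library 2 lay slightly above ASO-L1 library 3. With the block COL22A1 was called higher (adjusted p = 0.0034), and COL21A1 (-0.43 ± 0.14, 0.0229) and COL16A1 (-0.37 ± 0.14, 0.0443) were called lower. COL9A1, COL9A2, COL9A3 and COL20A1 ranged from -0.13 to 0.45 with adjusted p-values of 0.279 to 0.792. Of the 4 transmembrane collagens none was called, with log2 fold changes of -0.68 to 0.42. With the block COL17A1, a component of the hemidesmosomes that fix epithelia to their basement membrane, was called higher (0.39 ± 0.13, adjusted p = 0.0240) and COL25A1 lower (-0.68 ± 0.26, 0.0382). COL28A1 had 0.453, 0.394 and 0.292 CPM in ASO-L1 and 0.607, 0.854 and 0.554 CPM in SO-L1, a low level without overlap (-0.82 ± 0.36, adjusted p = 0.0967). COL26A1 had 27.3, 27.2 and 32.4 CPM in ASO-L1 and 27.7, 23.6 and 28.4 CPM in SO-L1, with overlap (0.12 ± 0.10, adjusted p = 0.374).

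The balance between chains of the same collagen type was read from count ratios within each library, which do not depend on the scaling between libraries. COL1A1 counts were 1.62, 1.65 and 1.59 times those of COL1A2 in ASO-L1 and 1.34, 1.29 and 1.31 times in SO-L1. The mean ratio was 1.62 ± 0.0313 in ASO-L1 and 1.32 ± 0.0251 in SO-L1 (SD, n = 3 each), so the gap between the groups was far wider than their spread. COL11A1 counts were 1.36, 1.51 and 1.74 times those of COL11A2 in ASO-L1 and 6.23, 5.13 and 6.82 times in SO-L1. Of these type XI chains COL11A2 rose and COL11A1 was not called, and the ratio in ASO-L1 was 0.254 times that in SO-L1. The ratio of COL5A1 to COL5A2 was 4.69, 3.86 and 3.69 in ASO-L1 and 2.75, 2.91 and 2.99 in SO-L1, and that of COL4A5 to COL4A6 was 3.36, 2.49 and 3.14 in ASO-L1 and 3.44, 4.72 and 4.58 in SO-L1. Neither of these pairs overlapped between the groups. The ratio of COL4A1 to COL4A2 was 1.99, 1.91 and 1.79 in ASO-L1 and 1.86, 1.95 and 1.80 in SO-L1, with overlap and a mean of 1.90 ± 0.103 in ASO-L1 and 1.87 ± 0.0731 in SO-L1.

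In all 11 pairs were compared, picked by hand after the values had been seen. They are consecutive chains of types I, V, VI, IX and XI and the head-to-head pairs of type IV, and other pairs of tested chains were not compared. For 3 pairs all ASO-L1 ratios lay above those of SO-L1, for 3 below, and for 5 the groups overlapped. Taken singly, 25.8% of all tested genes lay wholly above and 25.1% wholly below in ASO-L1. The share among ratios of arbitrary gene pairs was not computed. An exact permutation test of 3 against 3 libraries, two-sided, cannot give a p below 0.1, which all 6 separated pairs reached (0.183 when adjusted over the 11 pairs), so none passes a threshold of 0.05. Leaving out any single library moved none of the 11 log2 ratios by more than the spread between replicates. With 3 libraries in each group that outcome was fixed in advance, so it is no sign of stability.

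**Figure D3:**
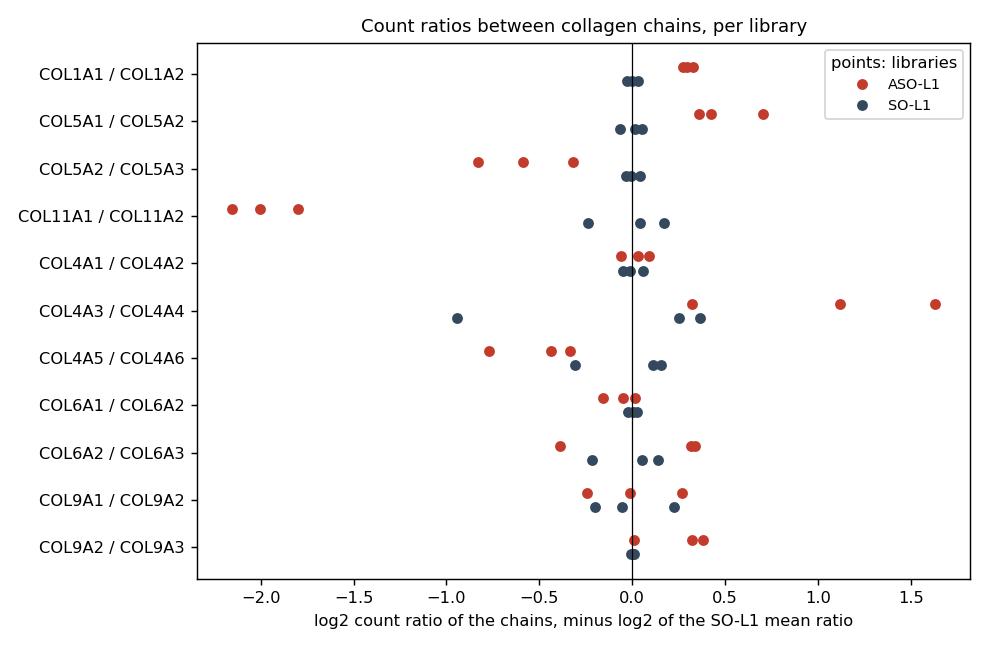
Log2 count ratio of the named chains in each library, minus the log2 of the mean SO-L1 ratio (x axis), with ASO-L1 points above SO-L1 points in each row. The ASO-L1 ratios of COL11A1 to COL11A2 (1.36 to 1.74) lie far left of those of SO-L1 (5.13 to 6.82), those of COL1A1 to COL1A2 lie to the right, and those of COL4A1 to COL4A2 overlap.

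Of 66 tested genes in 5 lists, of enzymes, carriers and receptors of collagens and of other basement membrane components, 8 were called higher and 15 lower, against 18.0% and 15.7% of all genes. Without replicate 1 of both groups the counts were 4 higher and 3 lower, without replicate 3 of both 4 and 8, without replicate 2 of both 11 and 23, and without SO-L1 replicate 3 they were 6 and 9. Over all genes those fits called 757 higher and 426 lower, 1611 and 1209, 3726 and 3471, and 1601 and 1374. These lists were written from general knowledge with earlier results of these data in view. In the list of export, procollagen cleavage and cross-linking 1 of 17 tested members rose and 7 fell, with a median log2 fold change of -0.34. BMP1, a proteinase that removes the end of procollagens, averaged 14.3 ± 2.84 CPM in ASO-L1 and 7.21 ± 0.916 CPM in SO-L1 (SD, n = 3 each), a log2 fold change of 0.99 ± 0.16 (adjusted p = 0.00241 by edgeR). MIA3, known as the receptor that loads procollagen into transport carriers, averaged 57.5 ± 3.06 CPM in ASO-L1 and 73.0 ± 2.69 CPM in SO-L1 (-0.34 ± 0.07, adjusted p = 0.00570). SEC24D, a coat protein of the same carriers, had a log2 fold change of -0.57 ± 0.11 (adjusted p = 0.00474). PXDN, the peroxidase that cross-links type IV collagen, averaged 288 ± 35.2 CPM in ASO-L1 and 418 ± 16.8 CPM in SO-L1 (-0.53 ± 0.09, adjusted p = 0.00257).

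In the list of collagen modification and folding 3 of 18 tested members rose and 3 fell (16.7% each, near the 18.0% and 15.7% of all genes), with a median log2 fold change of -0.03. LEPREL1, a prolyl hydroxylase, averaged 5.44 ± 0.894 CPM in ASO-L1 and 11.2 ± 0.739 CPM in SO-L1 (-1.05 ± 0.14, adjusted p = 0.00163 by edgeR). PLOD2, a lysyl hydroxylase that prepares cross-links, averaged 31.1 ± 5.60 CPM in ASO-L1 and 57.2 ± 4.41 CPM in SO-L1 (-0.88 ± 0.12, adjusted p = 0.00193). COLGALT1, which adds galactose to hydroxylysine, rose by 0.31 ± 0.08, and TMEM38B, an ion channel of the endoplasmic reticulum, by 0.38 ± 0.09. Among 9 tested receptors MRC2, an endocytic collagen receptor, fell by 0.57 ± 0.12 on the log2 scale and no other was called. Of 7 tested degradation genes 3 rose and 1 fell (42.9% and 14.3%). TIMP1 (0.76 ± 0.13) and TIMP3 (0.72 ± 0.14), inhibitors of matrix metalloproteinases, and the protease CTSK (0.86 ± 0.20) rose, whereas the inhibitor TIMP2 fell (-0.48 ± 0.10). Of 15 other basement membrane components 1 rose and 3 fell (6.67% and 20.0%). The laminin chain LAMB3 rose by 1.17 ± 0.25, and the proteoglycan AGRN (-0.41 ± 0.09) and the laminin chains LAMB1 (-0.24 ± 0.07) and LAMA5 (-0.19 ± 0.07) fell.

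Some of these calls were lost under alternatives while the fold change moved little. LAMA5 had a log2 fold change of -0.19 with all libraries, and its call was lost, at -0.21 to -0.15, with RLE factors (adjusted p = 0.0506), with a CPM above 1 in 3 libraries (0.0523) and without ASO-L1 replicate 1 (0.163) or 3 (0.0810) or SO-L1 replicate 2 (0.121) or 3 (0.156). The call of LAMB1 was lost, at log2 fold changes of -0.24 to -0.22, without ASO-L1 replicate 1 (0.0808) or SO-L1 replicate 1 (0.0921) or 3 (0.117), and that of COLGALT1, at 0.29 to 0.32, without SO-L1 replicate 1 (0.0716), 2 (0.0513) or 3 (0.0588). Without replicate 1 of both groups the calls of LAMA5, LAMB1, COLGALT1, AGRN, CTSK, MIA3, MRC2, SEC24D, TIMP2 and TMEM38B ended, with adjusted p-values of 0.0557 to 0.203. Without replicate 3 of both groups those of LAMA5, LAMB1, LAMB3, COLGALT1, MRC2 and TMEM38B ended (0.0652 to 0.249).

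**Figure D4:**
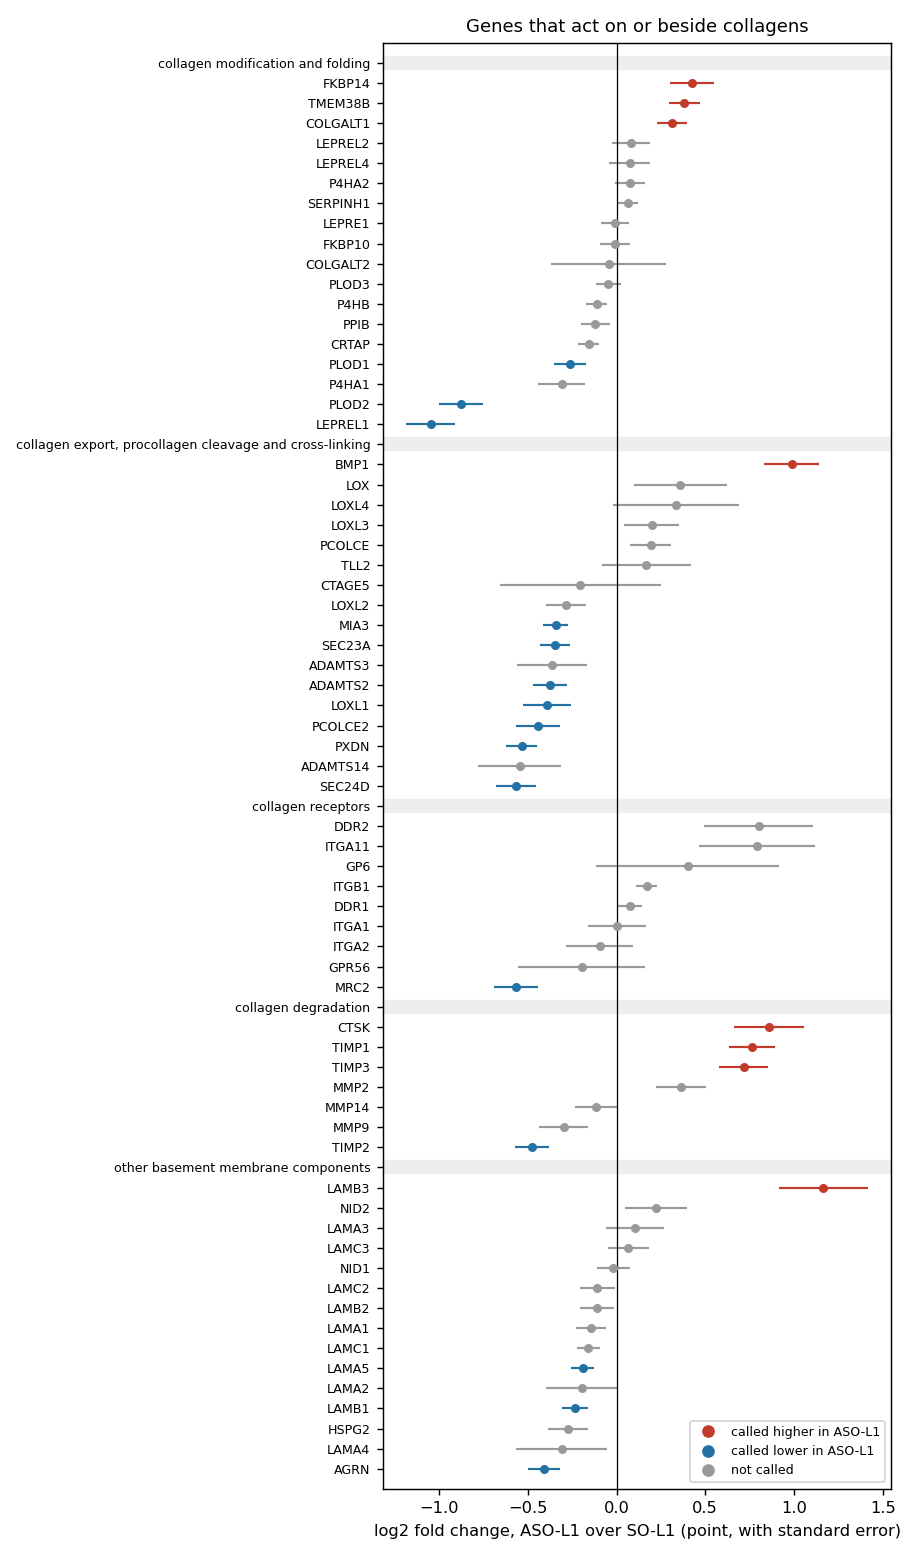
Log2 fold change of ASO-L1 over SO-L1 (x axis, point with standard error) for the tested genes of 5 lists, sorted within each list. In the list of export, cleavage and cross-linking 7 points are called lower and BMP1 is called higher, and LEPREL1 (-1.05) lies farthest left of all.

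Marker lists of other cell types were read from the same fit, in which 18.0% of all genes were higher and 15.7% lower. In bulk RNA, more cells of a type and more RNA per cell cannot be told apart. Of 14 tested fibroblast and mesenchymal markers 6 rose and 1 fell (42.9% and 7.14%), and the summed level of the list ran from 900 to 1063 CPM in ASO-L1 and from 695 to 809 CPM in SO-L1. VIM rose by 1.24 ± 0.13 and TWIST1 by 2.47 ± 0.49, while FN1 fell by 0.28 ± 0.08 on the log2 scale, by edgeR. The largest members of the sum were FN1, at 438 CPM in ASO-L1 and 530 CPM in SO-L1, and VIM, at 308 and 130 CPM. The sum thus rested largely on these genes, which went in opposite directions. PDGFRA, FBN1, ACTA2, PRRX1, TWIST2, POSTN and LUM were tested and not called. FAP had no read in any library, DCN had 9 reads in all, and LUM had 159. Of 8 tested primitive endoderm markers 5 rose (62.5%), and the list summed to 69.5 to 125 CPM in ASO-L1 and 21.2 to 33.9 CPM in SO-L1, most of it CER1 (70.3 ± 26.6 CPM in ASO-L1 and 14.5 ± 6.48 CPM in SO-L1). Of 6 tested endothelial markers 2 rose (33.3%), TEK (1.65 ± 0.21) and ESAM (2.17 ± 0.50, 81 reads in all), and 3 had log2 fold changes below 0. The list summed to 39.4 to 41.8 CPM in ASO-L1 and 35.2 to 37.1 CPM in SO-L1. Most of it was KDR, which was not called (30.8 and 31.3 CPM). Of 7 tested trophectoderm markers 2 rose (28.6%), CDX2 (2.24 ± 0.55) and TFAP2A (1.29 ± 0.38). Both were low, with 165 and 254 reads in all, and ASO-L1 library 2 stood highest. CDX2 had 1.11, 3.29 and 1.01 CPM in ASO-L1 and 0.512, 0.366 and 0.228 CPM in SO-L1. TFAP2A had 1.44, 3.86 and 1.65 CPM in ASO-L1 and 0.831, 1.14 and 0.847 CPM in SO-L1. The trophectoderm list summed to 110 to 127 CPM in ASO-L1 and 110 to 113 CPM in SO-L1. Most of that was TFAP2C, which was not called (84.2 and 86.6 CPM). Naive markers had 2 higher and 5 lower of 11 (353 to 365 CPM in ASO-L1 and 413 to 437 CPM in SO-L1). TFCP2L1 (0.47 ± 0.09) and KLF4 (0.72 ± 0.21) rose, and FGF4, DPPA3, DNMT3L, SUSD2 and KHDC3L fell. Core pluripotency genes had PRDM14 lower of 8 (3799 to 4532 and 4630 to 5087 CPM in ASO-L1 and SO-L1). The part of these markers in the collagen values was not tested.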

How the data were processed

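Poly(A) RNA-seq libraries of H9 cells, 3 of ASO-L1 and 3 of SO-L1, were analysed. The authors deposited raw counts per gene symbol. Per the submitters' processing notes, the tools were TopHat2 2.0.13, Trim Galore 0.4.0, Subread 1.5.0 and featureCounts, and hg19 was the build. The name of the deposited file says that duplicates were removed, which can lower the counts of abundant genes most. Annotation and strand setting: not given in the sources used here. The library kit was directional, and antisense-named rows of COL4A2, COL5A1 and COL18A1 had at most 7 reads in a library. The authors' deposited comparison table gives log2 fold changes and adjusted p-values, and its model is not stated.

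The filterByExpr function of edgeR 4.0.16 (minimum count 10, minimum total 15) left 16873 genes. Tests were edgeR's quasi-likelihood test with TMM factors and robust dispersion, two-sided, Benjamini-Hochberg adjusted over all tested genes, with calls at 0.05. Standard errors were taken as the size of the unshrunken log2 change over the root of its F. CPM use TMM factors. Alternatives were RLE factors, other filters, DESeq2 1.42.0, limma-voom (limma 3.58.1), a replicate block and leaving out libraries. On simulated data the test returned the signs and sizes of known changes and calibrated p-values, but when the dispersion varied from gene to gene the share of false calls lay above the nominal level, so calls near the threshold are the least secure.

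Same-numbered libraries deviated together, with correlations of 0.102, 0.377 and 0.211 for numbers 1, 2 and 3. All were over 0.1, so the fit with a replicate block is given beside the results it changes, while the main results come from the fit without it. ASO-L1 library 1 correlated more with SO-L1 library 3 (0.162) and SO-L1 library 1 more with ASO-L1 library 3 (0.156), so the pairing of 1 and 3 is unsettled. Replicates of a group differed by more than counting noise (chi-square over its degrees of freedom 1.97 to 22.1). Levels per kilobase use the joined length of all GENCODE 29 exons of a gene (GRCh38). Promoter sequences are from RefSeq (GRCh38.p14). Neither is the build of the counts. Every called member and the 8 most abundant tested members are named with all values, together with up to 4 called genes of each other list. The members and the lists were chosen with earlier results of these data known.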

Additional observations from a re-analysis of the deposited data

How the results depend on the processing

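The direction of all 6 called collagens held under each of the 15 alternatives. Since the groups did not overlap in these genes, leaving out libraries could hardly turn the direction. The other alternatives refit the same 6 libraries, so the held direction is no sign of stability. For the 6 called and the 7 other most abundant members, 13 in all, 179 comparisons with an alternative kept their side of the threshold, 12 lost a call and 4 gained one (COL7A1 and COL9A3). Less abundant members are not in that tally, and the block added COL3A1, COL22A1 and COL17A1 as higher and COL11A1, COL27A1, COL16A1, COL21A1 and COL25A1 as lower. With the replicate block the calls were 8 higher and 7 lower among the collagens, with 2 fibrillar lower, 4 others higher and 4 others lower. With no filter on low counts 1 fibrillar member was called lower and 2 others higher, and by DESeq2 1 fibrillar member was lower. Leaving out 1 library gave 2975 to 5322 calls over all genes, 1601 to 2903 higher and 1374 to 2456 lower, and leaving out a replicate number in both groups 1183 to 7197, 757 to 3726 higher and 426 to 3471 lower (2820, 1611 and 1209 without number 3). Among collagens, leaving out 1 library gave 3 to 7 higher and 0 to 4 lower, by class 2 to 4 fibrillar higher and 0 to 1 lower, 0 to 1 basement membrane lower, and 1 to 3 others higher and 0 to 2 lower. Leaving out a number in both groups gave 1 to 6 higher and 0 to 6 lower, by class 1 to 3 fibrillar higher and 0 to 2 lower, 0 to 1 basement membrane lower, and 0 to 3 others higher and 0 to 3 lower. The median log2 fold change of collagens ran from -0.0771 to -0.0021 and from -0.0709 to -0.011. The related lists had 6 to 10 higher and 9 to 14 lower without 1 library, and 4 to 11 higher and 3 to 23 lower without a number in both groups, with more higher than lower (4 and 3) without number 1. Fits without a replicate have fewer samples, and the cause of each change was not tested. The median over all genes was -0.0080 with RLE factors. Members under 1 CPM, such as COL4A3, COL4A4 and COL28A1, rest on few reads and have standard errors of 0.36 to 0.45.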

Other observations

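COL4A3BP, whose product transfers ceramide and is no collagen, stands beside the collagens in the table only by name. It had 2476, 2175 and 3180 reads in ASO-L1 and 3443, 3170 and 3523 in SO-L1, and was called lower by edgeR (0.850-fold, adjusted p = 0.0338). The collagen pseudogene rows COL6A4P1 and COL6A4P2 had 1 to 4 reads in each ASO-L1 library and 1 to 7 in each SO-L1 library.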
